A study of Mus musculus with 2 samples.

Results

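The genes described here are those of the T cell receptor chains and coreceptors that were listed for the T cells of these libraries. They comprise Trac, Trbc1, Trbc2, Trdc, Trgc1, Trgc4, Cd8a, Cd8b1, Cd4 and Cd160, 10 of the 55357 genes in the count tables. They were chosen by symbol, and their detection was counted in T barcodes, which are barcodes with at least 2 UMIs (unique molecular identifiers, 1 per captured transcript) summed over Cd3e, Cd3g and Cd3d, more than 500 detected genes and under 25% of UMIs from mitochondrial genes. The study made single-cell RNA libraries with a 10x Genomics 3′ kit from crypt-enriched epithelium of the small intestine, to follow how adiponectin affects gut stem cells and their progeny. One library came from Adipfl/fl mice, which carry floxed adiponectin alleles and no Cre, and one from Adipfl/flpVilli-CreT mice, in which a Cre recombinase driven by the villin promoter deletes the adiponectin gene in epithelial cells, so that both genotypes carry the floxed alleles. The mice were male and 8 weeks old, and each library was made from pooled animals. With 1 library per genotype, no test between genotypes was possible, the spread between animals is unknown, and every interval given here covers counting error only.

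A T cell receptor is a pair of chains, α with β or γ with δ, and each chain joins a rearranged variable region to a constant region. Trac encodes the α constant region, Trbc1 and Trbc2 the alternative β constant regions, Trdc the δ constant region and the Trgc genes the γ constant regions. The receptor is carried to the surface by the CD3 proteins. CD4 and CD8 are coreceptors that bind class II and class I MHC molecules, and CD8 is either a pair of α chains (Cd8a) or an α and a β chain (Cd8a with Cd8b1). Among intraepithelial lymphocytes, the T cells that lie between gut epithelial cells, γδ T cells and αβ T cells that carry CD8αα without the β chain are common, whereas conventional cytotoxic T cells carry CD8αβ. CD160 is a receptor of intraepithelial and other cytotoxic lymphocytes that binds the TNF receptor family member HVEM (Tnfrsf14).

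The constant-region genes include near-identical copies, and a read from an identical stretch cannot be assigned to 1 copy. The sequences below show the start of the constant regions, away from the 3′ end that the kit reads. They therefore do not show how many reads were ambiguous. In GENCODE M21 (GRCm38), Trbc1 (ENSMUSG00000076490) lies at chr6:41538218-41539881 and Trbc2 (ENSMUSG00000076498) at chr6:41546730-41548352, both on the plus strand, with 6848 bases between them. Their coding sequences shared 495 of 518 bases (95.6%), and the parts after the stop codon shared 112 of 154 aligned bases (72.7%). The first 120 bases of their first coding exon (chr6:41538218-41538337 and chr6:41546730-41546849) did not differ at any position:
Trbc1 and Trbc2: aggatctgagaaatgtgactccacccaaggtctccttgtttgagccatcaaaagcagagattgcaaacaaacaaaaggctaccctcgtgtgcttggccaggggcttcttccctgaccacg

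The γ genes lie on chromosome 13, with Trgc1 (ENSMUSG00000076749) at chr13:19214103-19217024 and Trgc4 (ENSMUSG00000076757) at chr13:19344558-19352756 on the plus strand. Trgc2 (ENSMUSG00000076752), which is not among the listed genes, lies between them on the minus strand at chr13:19304649-19307551. Trgc1 and Trgc2 shared 97.4% of their coding bases and 94.6% of those after the stop codon, whereas Trgc1 and Trgc4 shared 80.6% and 71.9%. The first 120 coding bases of the genes are shown with the 15 positions at which they differ in capitals, from chr13:19214103-19214222, chr13:19307432-19307551 (minus strand) and chr13:19344558-19344677:
Trgc1: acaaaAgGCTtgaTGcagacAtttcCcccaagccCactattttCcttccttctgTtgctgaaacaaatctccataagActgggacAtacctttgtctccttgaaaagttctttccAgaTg
Trgc2: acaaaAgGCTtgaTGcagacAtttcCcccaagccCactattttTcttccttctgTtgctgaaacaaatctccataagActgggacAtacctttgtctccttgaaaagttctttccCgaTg
Trgc4: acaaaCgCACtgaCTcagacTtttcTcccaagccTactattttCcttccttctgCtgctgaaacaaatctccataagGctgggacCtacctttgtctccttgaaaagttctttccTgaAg
A further copy, Trgc3 (chr13:19260884-19263528), is neither listed nor shown. It shared 96.8% of aligned coding bases with Trgc1 and 131 of 133 aligned bases after the stop codon (98.5%). Trgc3 was detected in 5 T barcodes of Adipfl/fl mice and 3 of Adipfl/flpVilli-CreT mice. Counts of Trbc1 against Trbc2, and of Trgc1 against Trgc2 and Trgc3, are therefore uncertain as far as reads fell in shared stretches. Trdc (chr14:54142851-54148868) and Trac (chr14:54220521-54224206) lie 71652 bases apart and are not copies of each other. Cd8b1 (chr6:71322788-71337494) and Cd8a (chr6:71373427-71379173) are neighbours on the plus strand, 35932 bases apart.

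T barcodes numbered 459 of the 3069 that passed the filters in Adipfl/fl mice (15.0%, exact 95% interval 13.7 to 16.3%) and 578 of 5555 in Adipfl/flpVilli-CreT mice (10.4%, 9.61 to 11.2%). The ratio of these shares, 0.696 (0.614 to 0.788), came to 0.973 (0.860 to 1.10) with a mitochondrial limit of 50% and 0.989 (0.874 to 1.12) with none, so the value depends on that limit. The median T barcode held 5319 UMIs in Adipfl/fl mice and 4722.5 in Adipfl/flpVilli-CreT mice, of which 28 and 24 were CD3 UMIs. All 12 T cell markers had UMIs in T barcodes of both libraries, but Cd3e, Cd3g and Cd3d define these barcodes and Trac, Trbc1, Trbc2, Trdc and Trgc1 are listed genes. Of the rest, Lck was detected in 80.8% and 76.3% of T barcodes and Skap1 in 72.3% and 65.9%. Cd247 was detected in 42.7% and 39.4%, and Cd2 in 10.2% and 10.4%. Of the 8 myeloid markers 4 and 5 had none, among them C1qc, Adgre1 and Ms4a7 of macrophages in both, but the list summed to 113 and 126 UMIs (38.3 and 31.7 CPM, UMIs per 1000000), and 5.01% and 5.02% of T barcodes held at least 2 of them. Itgax alone gave 103 and 108 of these UMIs. Of the 6 B and plasma cell markers 4 and 3 had none, and the list summed to 113 and 134 UMIs (38.3 and 33.7 CPM, against 10.1 and 5.15 CPM in barcodes without CD3). Cd79b alone gave 111 and 114 of these UMIs, so both sums rest mostly on single genes. The 7 markers of natural killer and innate lymphoid cells summed to more, 758 and 864 UMIs (257 and 217 CPM, against 15.6 and 8.48 CPM in barcodes without CD3). At least 2 of these UMIs were held by 35.7% and 34.1% of T barcodes, and only Klrb1b had none. Kit gave 403 and 447 of them, Prf1 152 and 164, and Il7r 131 and 191. Klrb1c gave 44 and 38, Eomes 27 and 21, and Ncr1 1 and 3. The sum thus rests mostly on Kit, Prf1 and Il7r, and Il7r is also in the list of circulating T cell genes used below. The 12 epithelial markers made up 0.371% of all UMIs of T barcodes in Adipfl/fl mice and 1.23% in Adipfl/flpVilli-CreT mice. The medians per barcode were 0.151% and 0.217%. These sums were 3705 and 12340 CPM, against 47334 and 45909 CPM in barcodes without CD3. The markers are only some of the epithelial transcripts, so the whole epithelial share of T barcodes was larger than these percentages. At least 2 UMIs of the list were held by 98.9% and 99.1% of T barcodes. The libraries shared 31 barcode sequences, 2 of them T barcodes in each. The targeted gene Adipoq had 1 UMI and 0 UMIs in the libraries, too few to check the labels.

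Cd8a, Cd160 and the listed β and γ constant regions were each detected in most T barcodes, though not always together, while Cd4 was found in few. With all UMIs counted, Trbc2 was detected in 92.6% of T barcodes of Adipfl/fl mice and 89.4% of those of Adipfl/flpVilli-CreT mice, Cd8a in 83.9% and 83.6%, and Trac in 76.3% and 72.7%. Trbc1 was detected in 58.8% and 57.1%. Of the γδ chains, Trdc was detected in 52.3% (47.6 to 56.9%) and 47.6% (43.4 to 51.7%), Trgc1 in 58.2% and 52.6%, and Trgc4 in 63.4% and 59.2%. Cd160 was found in 74.5% and 68.0%, Cd8b1 in 8.71% and 19.0%, and Cd4 in 3.70% (17 barcodes) and 3.63% (21 barcodes). These shares depend on how well the 3′ end of each transcript was captured and were not ranked between genes.

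**Figure D1:**
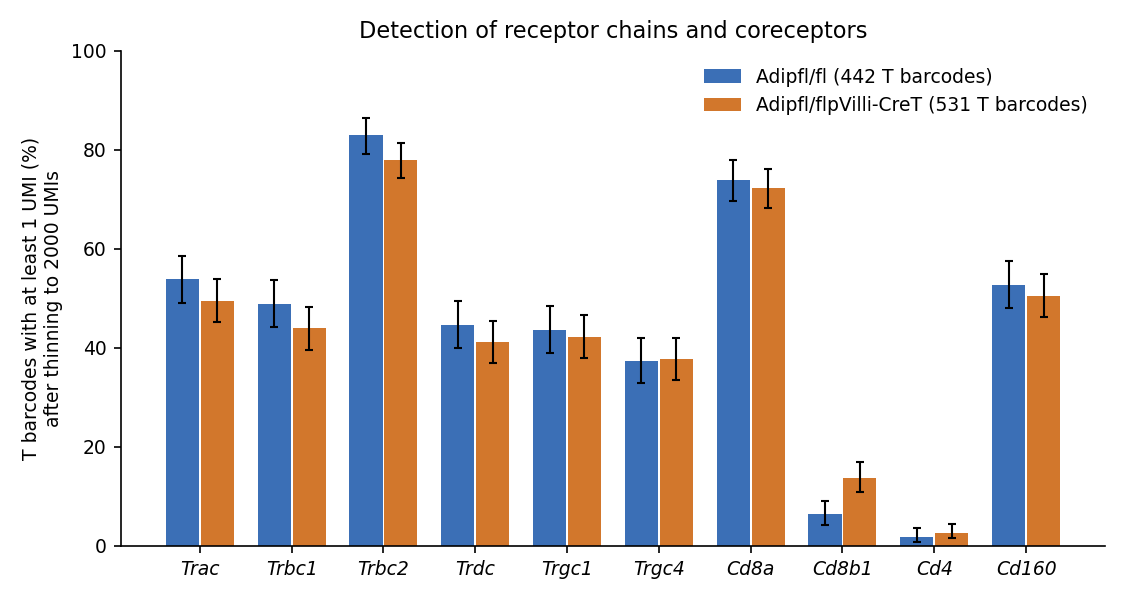
Share of T barcodes (%) with at least 1 UMI of each gene after every barcode was thinned to 2000 UMIs, by genotype (442 and 531 barcodes), with exact 95% intervals as error bars. Cd8b1 is the gene whose intervals lie apart, at 6.33% in Adipfl/fl mice and 13.7% in Adipfl/flpVilli-CreT mice.

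Epithelial barcodes seldom held any of the genes. Among 2370 epithelial barcodes of Adipfl/fl mice with no CD3 UMI (median 4654.5 UMIs), between 0.0422% for Cd4 and 1.10% for Trbc2 had a UMI of a given gene. Among the 4658 of Adipfl/flpVilli-CreT mice (median 4604 UMIs), the highest share was 0.794% for Trac, and Cd4 had no UMI, which allows a share of up to 0.0644%. The shares in T barcodes of Cd8b1 and Cd4, the least detected genes, lay above these. Barcodes without CD3 that held at least 3 UMIs of the myeloid markers (58 and 27) did carry the coreceptors. Cd4 was found in 21 of the 58 in Adipfl/fl mice (36.2%), Cd8b1 in 10 (17.2%) and Cd8a in 8 (13.8%), and Cd8b1 stood there at 198 CPM against 57.4 CPM in T barcodes. In Adipfl/flpVilli-CreT mice Cd4, Cd8b1 and Cd8a were found in 3, 2 and 3 of the 27. The level of Cd8b1 had the opposite order in that library, with 49.8 CPM on 13 UMIs against 98.7 CPM in T barcodes.

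Trac was found at lower counts where Trdc was present. In Adipfl/fl mice 219 T barcodes had 0 Trdc UMIs, 20 had exactly 1 and 220 had at least 2, with a median of 6.5 UMIs among the last. Trac was detected in 191 of the 219 barcodes with 0 Trdc UMIs (87.2%), with a median of 4 UMIs and with at least 4 UMIs in 50.7% of them. It was also detected in 148 of the 220 barcodes with at least 2 Trdc UMIs (67.3%), but with a median of 1 UMI and with at least 4 UMIs in 20.0%. In Adipfl/flpVilli-CreT mice 303 T barcodes had 0 Trdc UMIs, 32 had exactly 1 and 243 had at least 2. Trac was detected in 247 of the 303 (81.5%), with a median of 2 UMIs and at least 4 UMIs in 32.7%, and in 158 of the 243 (65.0%), with a median of 1 UMI and at least 4 UMIs in 14.8%, so the gap was smaller there.

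When each T barcode was classed by detection of both genes, 81 (17.6%) were Trdc-only, 191 (41.6%) Trac-only, 159 (34.6%) had both and 28 (6.10%) had neither in Adipfl/fl mice. In Adipfl/flpVilli-CreT mice the classes held 102 (17.6%), 247 (42.7%), 173 (29.9%) and 56 (9.69%). Barcodes with both were the deepest, with medians of 6439 and 5913 UMIs, and those with neither were the shallowest, with 3152.5 and 3360.5 UMIs. After thinning to 2000 UMIs, Trdc-only barcodes made up 25.8% and 23.4%, Trac-only 35.1% and 31.8%, both 18.8% and 17.7%, and neither 20.4% and 27.1% of T barcodes.

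**Figure D2:**
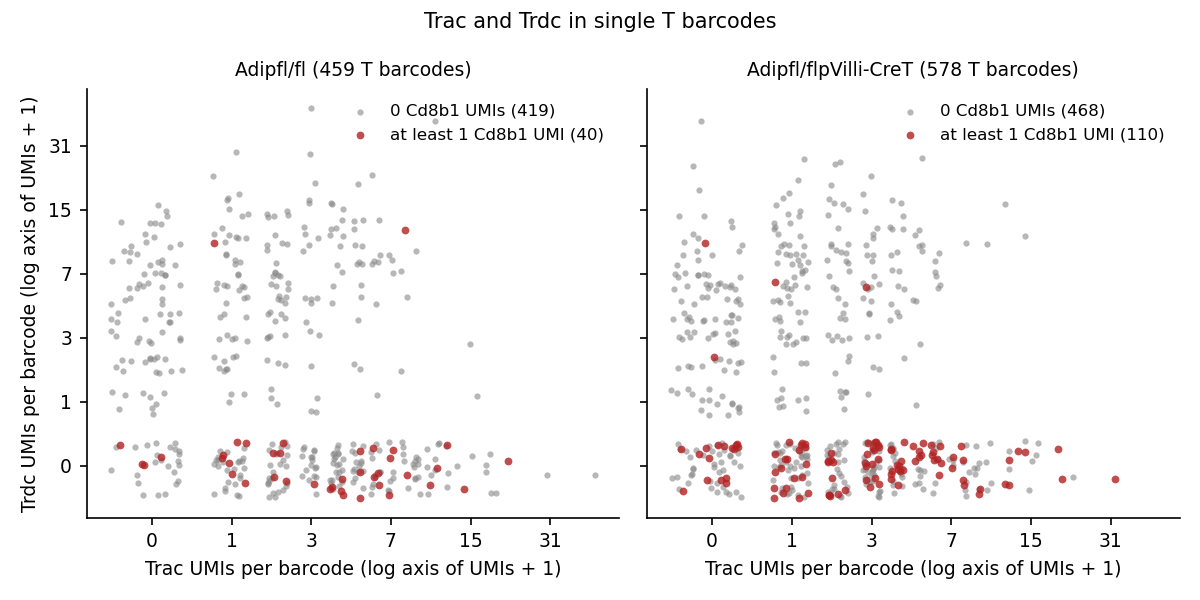
Trac UMIs against Trdc UMIs per T barcode, on log axes of UMIs + 1 with jitter, for Adipfl/fl (left, 459 barcodes) and Adipfl/flpVilli-CreT (right, 578 barcodes); red points hold at least 1 Cd8b1 UMI. Red points lie almost wholly along the row with 0 Trdc UMIs, with 2 above it in Adipfl/fl mice and 4 in Adipfl/flpVilli-CreT mice.

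The β constant regions were detected in most barcodes with Trdc as well. Trbc2 was found in 84.0% of Trdc-only and 95.3% of Trac-only barcodes of Adipfl/fl mice, and in 86.3% and 93.1% of those of Adipfl/flpVilli-CreT mice. Summed over barcodes, Trbc2 stood at 1141 and 1581 CPM in these classes of Adipfl/fl mice and at 914 and 1270 CPM in Adipfl/flpVilli-CreT mice, 0.722-fold and 0.720-fold in Trdc-only against Trac-only barcodes. Trbc1 was detected in 60.5% of Trdc-only and 51.3% of Trac-only barcodes in Adipfl/fl mice and in 67.6% and 50.6% in Adipfl/flpVilli-CreT mice. Detection of a β constant region therefore did not separate the classes.

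The balance between the β genes within single barcodes was uneven. Among Trac-only barcodes with at least 10 UMIs of Trbc1 and Trbc2 together, Trbc1 made up under 20% of them in 66 of 106 barcodes of Adipfl/fl mice (62.3%, 52.3 to 71.5%) and in 53 of 119 of Adipfl/flpVilli-CreT mice (44.5%, 35.4 to 53.9%). It made up at least 80% in 5 and 2 barcodes, and between 20% and 80% in 35 and 64 (33.0% and 53.8%). A Trbc1 share between 20% and 80% was found in 52 of 89 and 52 of 80 barcodes with both Trac and Trdc (58.4% and 65.0%), in 22 of 28 and 13 of 24 Trdc-only barcodes, and in 113 of 229 and 135 of 230 of all T barcodes with as many UMIs. It was thus the most frequent range in each of these classes other than the Trac-only barcodes of Adipfl/fl mice.

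The γ constant regions followed Trdc to different degrees. Trgc1 was detected in 75.3% of Trdc-only, 89.9% of double-positive and 29.8% of Trac-only barcodes in Adipfl/fl mice, and in 75.5%, 94.8% and 22.3% in Adipfl/flpVilli-CreT mice. Its level was 675 CPM in Trdc-only and 138 CPM in Trac-only barcodes of Adipfl/fl mice (4.89-fold, 4.03 to 5.95) and 620 and 81.0 CPM in Adipfl/flpVilli-CreT mice (7.65-fold, 6.22 to 9.47). Trgc4 differed less, with 448 and 220 CPM in Adipfl/fl mice (2.03-fold, 1.67 to 2.46) and 364 and 185 CPM in Adipfl/flpVilli-CreT mice (1.96-fold, 1.63 to 2.36). Trgc4 was still detected in 53.4% and 43.7% of Trac-only barcodes.

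**Figure D3:**
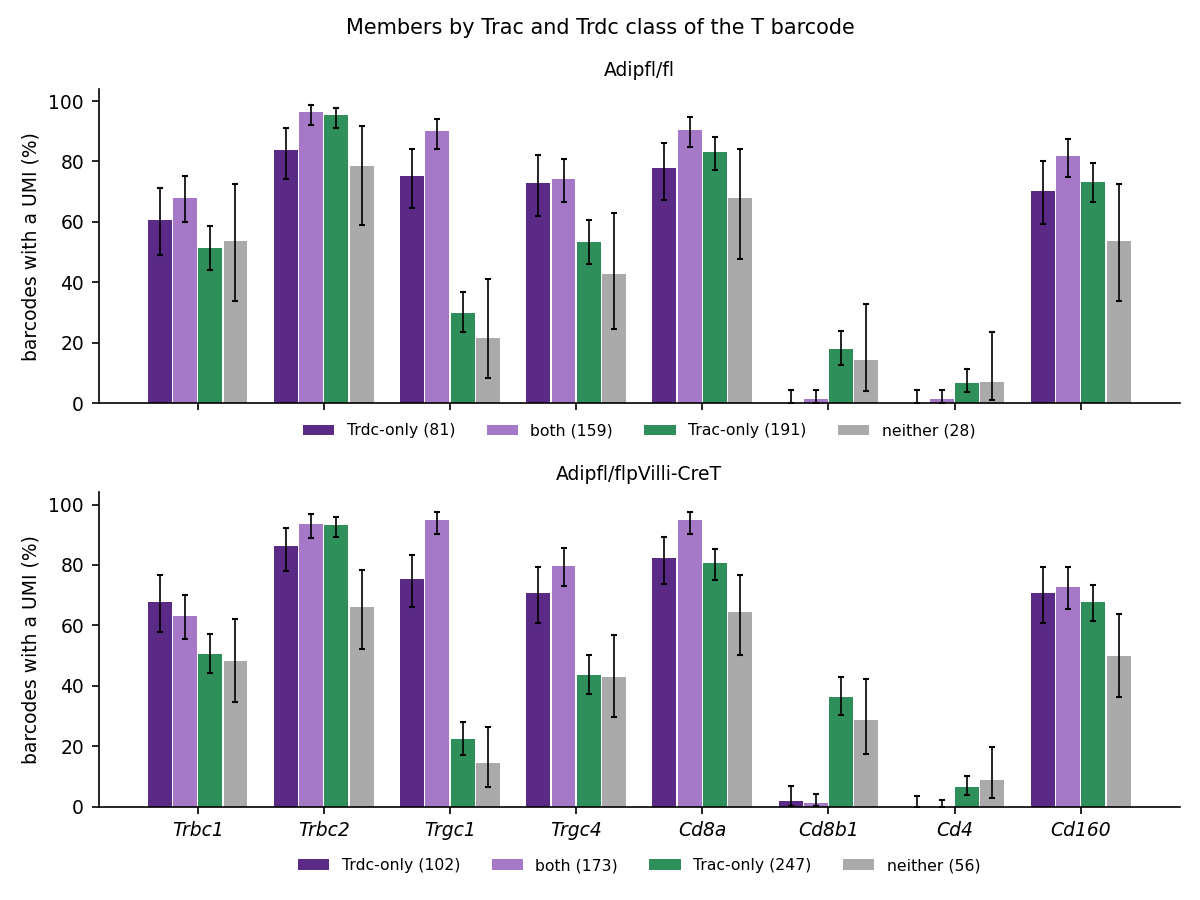
Share of barcodes (%) with a UMI of each gene in the Trdc-only, double-positive (both), Trac-only and neither classes (numbers of barcodes in brackets), for Adipfl/fl (top) and Adipfl/flpVilli-CreT (bottom), not thinned, with exact 95% intervals. Trgc1 reaches 29.8% at most in Trac-only barcodes, and Cd8b1 and Cd4 stay under 2% wherever Trdc was detected.

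Variable gene segments, which lie far from the 3′ end that the kit reads, were seen in part. A Trgv segment was found in 64.9% of T barcodes of Adipfl/fl mice and 60.6% of those of Adipfl/flpVilli-CreT mice, a Trav segment in 17.9% and 13.0%, a Trbv segment in 8.5% and 9.0%, and a Trdv segment in 6.32% and 6.23%. Trgv7, the γ variable segment typical of gut intraepithelial γδ T cells, was found in 83 of the 240 barcodes with Trdc (34.6%, 28.6 to 41.0%) and 5 of the 219 without (2.28%, 0.745 to 5.25%) in Adipfl/fl mice. In Adipfl/flpVilli-CreT mice it was found in 34.2% of barcodes with Trdc and 2.31% of those without. All 83 and all 94 barcodes with Trgv7 and Trdc also held Trgc1, against 77.1% and 81.2% of Trdc barcodes without Trgv7. Trgv2 was not tied to Trdc in this way, with 63.3% of barcodes with Trdc and 43.4% of those without in Adipfl/fl mice and 64.4% and 41.9% in Adipfl/flpVilli-CreT mice.

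The coreceptors fell along the same classes. Cd8a was present throughout, in 77.8% of Trdc-only, 90.6% of double-positive and 83.2% of Trac-only barcodes of Adipfl/fl mice and in 82.4%, 94.8% and 80.6% of those of Adipfl/flpVilli-CreT mice. Cd8b1 was found in 0 of 81 Trdc-only barcodes of Adipfl/fl mice, which allows a share of up to 3.70%, and in 2 of 102 of Adipfl/flpVilli-CreT mice. In Trac-only barcodes it was found in 34 of 191 (17.8%, 12.7 to 24.0%) and 90 of 247 (36.4%, 30.4 to 42.8%). Double-positive barcodes held Cd8b1 in 2 of 159 and 2 of 173, close to the Trdc-only class and far from the Trac-only class.

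Cd4 was found in no Trdc-only barcode, and in 13 of 191 (6.81%) and 16 of 247 (6.48%) Trac-only barcodes. It seldom accompanied Cd8a, in 3 T barcodes of Adipfl/fl mice and 1 of Adipfl/flpVilli-CreT mice. Barcodes with Cd8a but no Cd8b1 formed 76.3% of T barcodes in Adipfl/fl mice and 65.4% in Adipfl/flpVilli-CreT mice, and barcodes with both 7.63% (35) and 18.2% (105). None of the 3 coreceptor genes was detected in 12.2% and 12.1%, at medians of 3828.5 and 3832 UMIs. Cd160 crossed all classes, with 486 CPM in Trdc-only and 469 CPM in Trac-only barcodes of Adipfl/fl mice and 488 and 409 CPM in Adipfl/flpVilli-CreT mice.

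Few genes separated Trdc-only from Trac-only barcodes. Of 3204 genes with at least 50 CPM in 1 class and at least 20 UMIs in each library, 4 were at least 2-fold higher in Trdc-only barcodes in both libraries (0.125%) and 27 at least 2-fold lower (0.843%). Trac and Trdc define the classes and Cd4 was too low, and of the other 7 listed genes Trgc1 was higher and Cd8b1 lower. The genes with the largest folds included Trgv7 (18.5-fold and 16.8-fold higher in Adipfl/fl and Adipfl/flpVilli-CreT mice) and the tetraspanin gene Tspan9 (2.98-fold and 3.74-fold). Kctd12, which encodes a potassium channel tetramerization domain protein, was 2.16-fold and 3.57-fold higher. Of the 10 genes with the largest difference in this direction, Trgc4, 2810013P06Rik, Gm20186, Gcnt1, Vsir and Wls were under 2-fold in at least 1 library.

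Genes lower in Trdc-only barcodes included Cd5 and Cd6. Cd5, an inhibitory receptor that dampens antigen receptor signalling, stood at 2.56 and 58.6 CPM in Trdc-only and Trac-only barcodes of Adipfl/fl mice and at 3.55 and 61.4 CPM in Adipfl/flpVilli-CreT mice, on 1 and 2 UMIs in the Trdc-only class. Its relative Cd6 stood at 5.12 and 64.7 CPM and at 8.88 and 79.0 CPM. Cd8b1 had 0 UMIs in the Trdc-only class of Adipfl/fl mice, which was 16.0-fold lower when taken as 3 UMIs, with an exact interval from 12.8-fold upward. It was 31.6-fold lower (12.2 to 117) in Adipfl/flpVilli-CreT mice. Ly6a, Gzmk, Sh2d1a, Ms4a4b, the integrin gene Itgal and the interleukin-7 receptor gene Il7r were also lower, between 3.52-fold and 12.1-fold over both libraries. Cd5, Cd6, Ms4a4b and Il7r also differed within the Trac-only class, between barcodes with and without Cd8b1, as given below. Ctla2a was 23.8-fold lower (4.15 to 952) on 1 UMI in Adipfl/fl mice and 5.15-fold lower (2.27 to 14.4) in Adipfl/flpVilli-CreT mice.

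By lists, 0 of 16 tested genes of CD3 and receptor signalling were higher and 2 lower (Cd5 and Cd6). None of 8 lineage transcription factors and none of 17 genes of intraepithelial lymphocytes passed 2-fold in both libraries. Among the latter, the granzyme gene Gzma stood at 28024 CPM in Trdc-only and 23696 CPM in Trac-only barcodes of Adipfl/fl mice and at 19967 and 19006 CPM in Adipfl/flpVilli-CreT mice. Of 4 genes of circulating T cells, Il7r and Ms4a4b were lower.

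Within Trac-only barcodes with Cd8a, barcodes with and without Cd8b1 were compared in the same way. The comparison held 30 barcodes with Cd8b1 and 129 without in Adipfl/fl mice (medians of 6585 and 5576 UMIs), and 86 and 113 in Adipfl/flpVilli-CreT mice (4716.5 and 4719 UMIs). Of 3314 genes tested, 66 were at least 2-fold higher with Cd8b1 in both libraries (1.99%) and 83 at least 2-fold lower (2.50%). Of the 5 listed genes tested that were not used to form the groups, Trgc1 and Trgc4 were lower. Trgc4 was detected in 2 of 30 barcodes with Cd8b1 and 92 of 129 without (6.67% and 71.3%) in Adipfl/fl mice, and in 19 of 86 and 79 of 113 (22.1% and 69.9%) in Adipfl/flpVilli-CreT mice. Trgc1 was detected in 10.0% and 41.1%, and in 4.65% and 43.4%. The intervals of Cd160 overlapped, with detection in 24 of 30 and 101 of 129 barcodes, and in 69 of 86 and 77 of 113, as did those of Trbc2, in 100% and 95.3%, and in 98.8% and 92.9%.

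**Figure D4:**
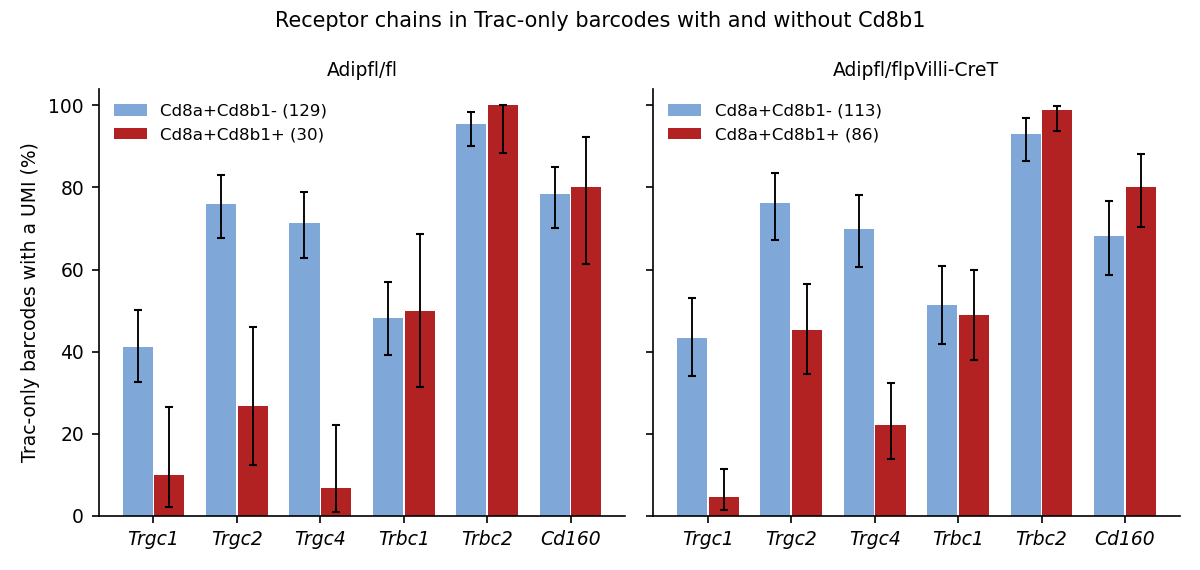
Share (%) of Trac-only barcodes with Cd8a that held each receptor gene and Cd160, with Cd8b1 (red) or without (blue), in Adipfl/fl (left) and Adipfl/flpVilli-CreT (right), with exact 95% intervals. The intervals of Trgc1, Trgc2 and Trgc4 lie apart in both libraries, whereas those of Trbc1, Trbc2 and Cd160 overlap.

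Among receptor signalling genes 8 of 19 tested were higher with Cd8b1 and none lower. The costimulatory receptor gene Cd28 stood at 113 and 3.33 CPM with and without Cd8b1 in Adipfl/fl mice and at 57.3 and 2.70 CPM in Adipfl/flpVilli-CreT mice, on 3 and 2 UMIs without Cd8b1. Thy1 stood at 338 and 30.0 CPM and at 190 and 20.2 CPM, and Lat, the adaptor that gathers signalling proteins beneath the receptor, at 501 and 91.1 CPM and at 310 and 67.5 CPM. Cd2, Cd5, Cd6, Cd247 and Themis were the others. Of 5 genes of circulating T cells, Klf2, Il7r, Ms4a4b and Cd52 were higher. The surface marker gene Ly6c2 (29.4-fold in Adipfl/fl mice and 59.6-fold, 10.2 to 2408, on 1 UMI in Adipfl/flpVilli-CreT mice) and BE692007 were also among the 5 with the largest difference. Without Cd8b1, Ms4a4b stood at 68.8 CPM in Adipfl/fl and 59.4 CPM in Adipfl/flpVilli-CreT mice, no higher than in Trdc-only barcodes (71.6 and 85.2 CPM). Cd5 stood at 14.4 and 10.8 CPM there, above its Trdc-only levels of 2.56 and 3.55 CPM. The other genes lower in Trdc-only barcodes were not set against this group.

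In the other direction, 6 of 16 genes of intraepithelial lymphocytes were lower with Cd8b1 and none higher. Fcer1g, an adaptor shared by Fc and natural killer receptors, stood at 87.7 CPM with and 1991 CPM without Cd8b1 in Adipfl/fl mice and at 154 and 1913 CPM in Adipfl/flpVilli-CreT mice. Tyrobp, which encodes another adaptor, stood at 87.7 and 907 CPM and at 46.5 and 823 CPM. Xcl1, Cd244a, Cd7 and Il2rb were the others. Among 7 lineage transcription factors Ikzf2 was lower, with 79.4 and 1177 CPM in Adipfl/fl mice and 197 and 1043 CPM in Adipfl/flpVilli-CreT mice, while Bcl11b and Lef1 were higher. Itih5, Mei1, Cited4 and Plcg2 completed the 5 genes with the largest difference in this direction, each at 8.95 CPM or less with Cd8b1.

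Between the genotypes, Cd8b1 was the listed gene whose detection in thinned T barcodes had a ratio with an interval that excluded 1. These Poisson intervals are too wide for genes found in most barcodes, so rare and common genes were not judged alike. Before thinning it was found in 40 of 459 T barcodes of Adipfl/fl mice and 110 of 578 of Adipfl/flpVilli-CreT mice, with a median of 3 UMIs in both where it was detected. After thinning the shares were 28 of 442 (6.33%, 4.25 to 9.03%) and 73 of 531 (13.7%, 10.9 to 17.0%), a ratio of 2.17 (1.39 to 3.49). Its level was 57.4 CPM (49.0 to 66.7) in Adipfl/fl mice and 98.7 CPM (89.1 to 109) in Adipfl/flpVilli-CreT mice, 1.72-fold (1.43 to 2.07), and 2.06-fold per 100 CD3 UMIs. Within thinned Trac-only barcodes Cd8b1 was found in 18 of 155 (11.6%) and 45 of 169 (26.6%), a ratio of 2.29 (1.30 to 4.21). Barcodes with Cd8a and Cd8b1 made up 4.98% and 11.3% of thinned T barcodes, a ratio of 2.27 (1.37 to 3.89). Those with Cd8a but no Cd8b1 made up 69.0% (64.5 to 73.3%) and 61.0% (56.7 to 65.2%), a ratio of 0.884 (0.754 to 1.04). This Poisson interval of the ratio is wide for shares this large, so it does not show that the shares were equal. When only T barcodes with epithelial UMIs at or under the median share were kept, the ratio of Cd8b1 detection was 2.61 (1.34 to 5.32), and without those holding at least 2 UMIs of the myeloid or of the B and plasma cell markers it was 2.20 (1.36 to 3.68). The UMIs of these 2 lists in T barcodes were mostly those of Itgax and Cd79b.

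The ratios of detection of the other 9 genes after thinning lay between 0.898 for Trbc1 and 1.46 for Cd4, each with an interval that included 1, the widest being 0.570 to 4.01 for Cd4. For common genes such as Trbc2 (83.0% and 78.0% of barcodes, 0.814 to 1.08), an interval of this kind does not show that the shares were equal. The interval of Cd8a was 0.841 to 1.14 and that of Trdc 0.756 to 1.12. Their levels in CPM, Cd4 left out, were 0.725-fold to 0.825-fold in Adipfl/flpVilli-CreT against Adipfl/fl mice, from 505 to 367 CPM for Trac and from 523 to 431 CPM for Trgc1. The intervals of these folds excluded 1, but they treat UMIs as independent. UMIs of a gene gathered in single barcodes, such as Trbc2 with medians of 7 and 6 where detected and up to 79 and 62. The intervals of levels are therefore too narrow to cover spread between barcodes. Per 100 CD3 UMIs the same folds lay between 0.866 and 0.986. The share of epithelial transcripts in T barcodes was higher in Adipfl/flpVilli-CreT mice, as given above. Among T barcodes at or under the median epithelial share, the CPM folds of these 8 genes lay between 0.852 for Trac and 1.10 for Trgc1, and those of Trdc (1.07), Trgc1 and Trgc4 (1.08) turned direction. The fold of Cd160 turned to 1.05 without the 8% of barcodes with most UMIs and to 1.02 by the mean of single-barcode CPM. Those of Trac, Trbc1, Trbc2 and Cd8a stayed below 1 in all 15 alternatives. Of 3683 genes tested, 491 were at least 1.5-fold higher in T barcodes of Adipfl/flpVilli-CreT mice (13.3%), 12 of 12 epithelial markers among them, and 143 at least 1.5-fold lower (3.88%). Of the 9 listed genes tested, Cd8b1 was higher and none was lower, a share near that background.

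**Figure D5:**
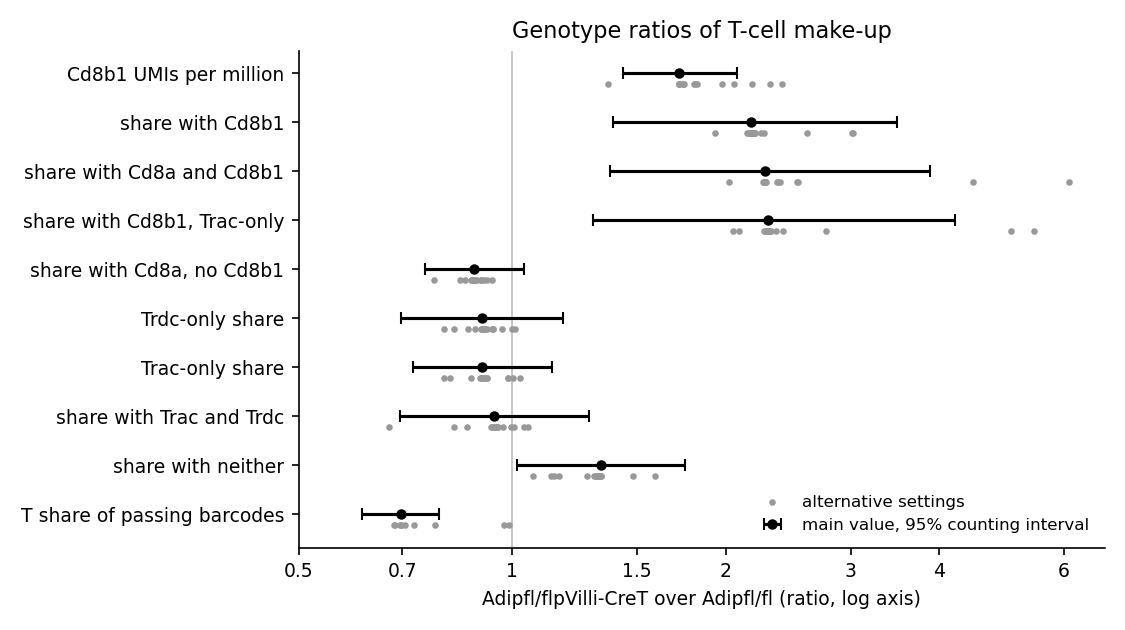
Ratio of Adipfl/flpVilli-CreT to Adipfl/fl (log axis) for each measure of T-cell make-up, as the main value with its 95% counting interval (black) and under each alternative setting (grey). The 4 measures of Cd8b1 stay above 1 throughout, at 1.36 or more, while the T share of passing barcodes moves from 0.696 to 0.989 with the mitochondrial limit.

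The make-up by Trac and Trdc gave ratios of 0.905 (0.696 to 1.18) for Trdc-only, 0.908 (0.725 to 1.14) for Trac-only and 0.943 (0.694 to 1.28) for double-positive barcodes after thinning. Barcodes with neither gene gave 1.33 (1.02 to 1.75), but 1.17 (0.873 to 1.56) without the 8% of barcodes with most UMIs and 1.14 (0.751 to 1.74) at a low epithelial share. Cycling barcodes, with at least 2 UMIs of Mki67 and Top2a, were counted without thinning. They made up 24.1% (18.2 to 30.8%) of Trac-only barcodes in Adipfl/fl mice and 14.6% (10.4 to 19.6%) in Adipfl/flpVilli-CreT mice. These intervals overlap, and the medians of the class were 5318 and 4465 UMIs. Of double-positive barcodes 28.9% and 27.7% were cycling. Trdc-only barcodes cycled in 13.6% and 11.8%.

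Genes of the intraepithelial list showed 0 of 17 higher and 4 lower by 1.5-fold in T barcodes of Adipfl/flpVilli-CreT mice (Xcl1, Tyrobp, Cd7 and Lag3), and those of receptor signalling 0 of 14 higher and 1 lower (Zap70, 205 and 126 CPM). Over all genes tested, 13.3% were higher and 3.88% lower. The median log2 fold of the 2 lists was -0.39 and -0.34, against -0.10 over all genes tested. The lists were not recomputed at a low epithelial share, where folds of some listed genes turned direction. Genes whose products meet these receptors were read in the epithelial barcodes too. Btnl1 and Btnl6, butyrophilin-like genes whose products regulate gut γδ T cells with Trgv7, stood at 213 and 53.8 CPM in epithelial barcodes of Adipfl/fl mice and at 203 and 44.3 CPM in Adipfl/flpVilli-CreT mice. H2-T3, which encodes the ligand of CD8αα known as TL, stood at 157 and 130 CPM, and Tnfrsf14 at 4.01 and 3.98 CPM. All epithelial barcodes were summed together, and whether their make-up from crypt to villus differed between the libraries was not tested. The folds between genotypes were 0.955 (0.920 to 0.991) for Btnl1, 0.824 (0.763 to 0.889) for Btnl6, 0.827 (0.791 to 0.865) for H2-T3 and 0.992 (0.755 to 1.31) for Tnfrsf14. Those of Btnl2 and Btnl4 were 0.845 (0.787 to 0.907) and 0.903 (0.841 to 0.969). The class I genes H2-K1 and H2-D1 had folds of 1.18 (1.17 to 1.20) and 1.00 (0.980 to 1.02). The class II genes H2-Aa, H2-Ab1 and H2-Eb1 had folds of 1.04 (0.967 to 1.11), 0.905 (0.868 to 0.945) and 1.05 (0.978 to 1.12).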

How the data were processed

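Per the labels and the study's methods, reads were converted with bcl2fastq 5.0.1 and counted against mm10 with Cell Ranger (7.1.0 in the headers of the tables). The deposited values are raw UMI counts per gene and barcode, 42150623 in the library of Adipfl/fl mice and 63370798 in that of Adipfl/flpVilli-CreT mice, without normalization and with failing barcodes included. Barcodes were filtered on genes and mitochondrial UMIs with the thresholds the study states, which left 3069 of 9791 and 5555 of 11838 barcodes, fewer than the study kept, so its filter and the one used here differ in a way the sources do not give. The genes, lists and comparisons were chosen with earlier results of these data known.

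A gene was detected at 1 UMI. Before genotypes were compared, T barcodes were thinned at random to 2000 UMIs, which left out 17 and 47 shallower barcodes. Shares have exact Clopper-Pearson 95% intervals, and sums and ratios exact Poisson ones, conditional on the total for ratios and wide for large shares. For a share of 0 the limit given is 3 counts of the total. All cover counting error only. Intervals of summed UMIs and their folds leave out the spread between barcodes and are too narrow for it. UMIs were summed over a class and scaled to 1000000 (CPM). Genes needed 50 CPM in 1 of the groups compared and 20 UMIs in all. Lacking replicates, they were called by size, at least 2-fold in both libraries between classes and 1.5-fold between genotypes, with a fold against 0 UMIs taken against 3 UMIs. Named were the listed genes, list genes, and the genes with the largest fold in each direction, ranked by the smaller of the 2 libraries (10 between Trdc-only and Trac-only barcodes, 5 with and without Cd8b1). Other genes were named after their values were seen. Lists of receptor signalling, lineage factors, intraepithelial and circulating T cells, ligands and other cell types were written by hand. Doublets were not removed and no caller was run; an alternative drops the 8% of barcodes with most UMIs. Epithelial barcodes had 0 CD3 and 0 Ptprc UMIs and at least 10 UMIs of the epithelial list.

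Positions and sequences are from GENCODE M21 (GRCm38, which is mm10). Folds and intervals were tested on simulated Poisson counts. These had no spread between barcodes or animals, so they do not show how the intervals perform with such spread. Plots were drawn with matplotlib 3.10.9, and calculations used scipy 1.17.1 and numpy 2.4.6 in Python 3.11.15.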

Additional observations from a re-analysis of the deposited data

Results flagged for a closer look

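Trbc1 differed between Trdc-only and Trac-only barcodes in opposite directions in the libraries, with a log2 fold of 0.42 in Adipfl/fl mice and -0.34 in Adipfl/flpVilli-CreT mice. Cd8a did so to a smaller extent, with log2 folds of 0.043 and -0.21. Between Trac-only barcodes with and without Cd8b1, Trbc1 had log2 folds of -0.65 and 0.39 and Cd160 of -0.28 and 0.23. The difference between the genotypes was not tested for any of these, and Trbc1 shares near-identical stretches with Trbc2. Outside the barcodes that passed the filters, 13 barcodes of Adipfl/fl mice and 14 of Adipfl/flpVilli-CreT mice held at least 2 CD3 UMIs, of 6722 and 6283 failing barcodes. Of these, 8 and 8 exceeded the mitochondrial limit and 5 and 6 had too few genes.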

How the results depend on the processing

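Of 459 recomputed values, 17 among the make-up ratios and gene counts and 47 among the single-gene ratios moved. A moved ratio lay outside its main interval, and a moved count differed by more than 1.5-fold. A reversal could be called only where the main interval excluded 1, which was not so for many of these values. Among those where it could, 5 levels of single genes reversed. They were those of Trdc (1.07), Trgc1 (1.10) and Trgc4 (1.08) at a low epithelial share and of Cd160 without the 8% of barcodes with most UMIs (1.05) and by the mean of single-barcode CPM (1.02). The ratios of the T share, of the share with neither Trac nor Trdc and of the shares with Cd8b1, whose main intervals excluded 1, kept their direction. For the T share and the share with neither gene, however, the interval included 1 under some alternatives, as given above. Ratios of the Trdc-only, Trac-only and double-positive shares, whose main intervals included 1, lay on either side of 1. The ratio of T shares came to 0.973 under 50% mitochondrial UMIs and 0.989 with no limit. Thinning to 1000 UMIs gave ratios of 0.671 for barcodes with both Trac and Trdc, 4.46 for Cd8a with Cd8b1 and 5.05 for Cd8b1 in Trac-only barcodes, and detection at 2 UMIs gave 6.10 and 5.44 for the last pair. Genes higher in Trdc-only barcodes numbered 15 with minima of 20 CPM and 10 UMIs, 1 with 100 CPM and 40 UMIs, 11 at a low epithelial share and 2 when classed by Trdc alone, an alternative chosen after seeing the data; genes lower numbered 56 and 12 under the first pair of minima. Genes higher in Adipfl/flpVilli-CreT mice numbered 977 and 237 under these minima, and genes lower 411 and 64. Minima change the genes tested and thinning leaves fewer UMIs, but the cause of the moved values was not tested. The Cd8b1 ratio of detection lay between 1.93 and 3.03 over its alternatives. Depth limits statements on Cd4, with 35 and 32 UMIs in T barcodes. No paired analysis was possible because each genotype has 1 library.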

Other observations

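Cd8b1, Cd8a and Cd4 were also found in barcodes without CD3 that held Siglech, a receptor gene of plasmacytoid dendritic cells, which was chosen after its values were seen. In Adipfl/fl mice 23 such barcodes with at least 2 Siglech UMIs and 0 CD3 UMIs held Cd8b1 in 18 (78.3%, 56.3 to 92.5%), Cd8a in 11 and Cd4 in 12. In Adipfl/flpVilli-CreT mice 15 such barcodes held Cd8b1 in 7 (46.7%, 21.3 to 73.4%), Cd8a in 7 and Cd4 in 5. None of them held a UMI of Trac, Trbc1, Trbc2, Trdc, Trgc1, Trgc4 or Cd160 in either library. These barcodes carried 108 of the 110 Cd8b1 UMIs found in barcodes without CD3 in Adipfl/fl mice and 35 of 39 in Adipfl/flpVilli-CreT mice. Siglech had no UMI in T barcodes of either library.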
